A study of Mus musculus with 4 samples.

Results

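The small RNA of macrophages from leukaemic bone marrow (BM) was compared with that of macrophages from normal bone marrow. The members are the 216 microRNAs (miRNAs), of 847 rows in the count table, that had at least 30 reads in the larger of these libraries. They were chosen by this minimum alone, whatever the direction of their difference, and they held 99.2% of the reads of each library. Both libraries came from C57BL/6J mice given as 6 to 8 weeks old. The leukaemic library (AML BM) was made from macrophages of mice that had received GFP+ cells of an MLL-AF9 acute myeloid leukaemia (AML) without irradiation, and the cells were sorted 18 days later. MLL-AF9 is a fusion gene that drives this leukaemia, and the mice of the study survived for 35 to 40 days. The protocol names 0 and 18 days as the times of sorting, and the normal mice carry no day of their own in the labels. The sources used here do not give the marker set of the sort, nor how many mice went into a library. Each state had 1 library, so no test across mice exists, and every statement below compares these libraries and not the conditions. In bulk samples such as these, fewer cells of a type and less RNA per cell cannot be told apart.

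A miRNA is cut from a hairpin precursor, and either strand of the hairpin, the 5p or the 3p arm, can be loaded into an Argonaute protein. The loaded strand finds its target messenger RNAs mostly through its seed, the bases 2 to 8 from its 5′ end, so miRNAs with 1 seed form a family with overlapping targets. In blood cells miR-142 and miR-223 are known as haematopoietic and myeloid miRNAs. In macrophages miR-155 and miR-146 are known to be induced by inflammatory signals, and miR-155 is known to repress regulators that dampen such signals.

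The mature sequences on which the results turn are shown 5′ to 3′ from RefSeq (assembly GRCm38.p6), with the seed in capitals, grouped by where they enter the results. RefSeq names matched 183 of the 216 members, and among those without an entry are miR-1a-3p, miR-133a-3p, miR-122-5p and miR-669c-5p. The first set holds blood-cell and inflammation-linked miRNAs that were higher in AML BM, with others of the same seed. It also shows miR-139-5p, which is in none of those lists.
miR-155-5p: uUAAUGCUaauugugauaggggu
miR-142a-3p: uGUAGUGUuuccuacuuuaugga
miR-223-5p: cGUGUAUUugacaagcugaguug
miR-139-5p: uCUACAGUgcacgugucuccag
miR-181a-5p: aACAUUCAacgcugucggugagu
miR-181b-5p: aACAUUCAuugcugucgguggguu
miR-181d-5p: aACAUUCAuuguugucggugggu
miR-146b-5p: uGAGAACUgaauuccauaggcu
miR-146a-5p: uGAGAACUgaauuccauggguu
The next set holds miRNAs that were lower in AML BM and are known from red cells, muscle and stroma.
miR-451a: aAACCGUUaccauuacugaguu
miR-206-3p: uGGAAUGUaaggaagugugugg
miR-214-3p: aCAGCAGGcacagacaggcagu
The last set holds members that share a seed or a hairpin but moved apart between the libraries. For miR-185 and miR-455 only the arm that was called is shown.
miR-15b-5p: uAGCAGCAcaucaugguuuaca
miR-16-5p: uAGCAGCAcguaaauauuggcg
miR-17-5p: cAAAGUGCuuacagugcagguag
miR-20a-5p: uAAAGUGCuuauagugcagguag
miR-423-5p: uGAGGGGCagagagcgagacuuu
miR-423-3p: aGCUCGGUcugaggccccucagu
miR-185-3p: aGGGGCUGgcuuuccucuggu
miR-455-3p: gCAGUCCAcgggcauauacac

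The total count was 206652 in normal BM and 271209 in AML BM. Levels are given as CPM, the count per 1000000 counts of a library, after scaling with TMM, a factor that corrects library totals for differences in composition. A log2 ratio is AML BM over normal BM, and its interval, in brackets, is an exact 95% interval. It covers counting error only, since each state had 1 library. Molecular identifiers are absent, so reads copied from the same molecule count separately and the interval can be too narrow. A miRNA is called higher or lower where the ratio was at least 2-fold and the interval excluded equality. Of the 216 members, 29 were higher in AML BM, which is 13.4% of those compared. Another 26 were lower, which is 12.0%, so 25.5% were called in either direction and 161 were called in neither. The median log2 ratio was 0.003, 108 members lay above equality and 108 below it, and the middle 50% of members ran from −0.51 to 0.56. The split of calls depends on the scaling. With totals from which the 10 most abundant miRNAs were left out, the median moved up by 0.185 and 37 members were higher and 20 lower, so 64.9% of the calls were in the higher direction in place of 52.7%.

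The calls lie mainly among rare miRNAs, where the counting error is widest. Of the 81 members with a mean level under 300 CPM, 18 were higher and 17 lower, which is 43.2%. Of the 24 members at 10000 CPM or more, 2 were higher and 2 lower. In 171 members both libraries held at least 30 reads, and 14.6% of these were called, 14 higher and 11 lower. Of the 29 members that reached 30 reads in AML BM alone, 15 were higher, and of the 16 that reached it in normal BM alone, 15 were lower. These last members could pass the minimum only through the library where they were high, so their counts are a description. At the minimum itself, miR-18a-3p with 20 reads in normal BM and 30 in AML BM was just inside. miR-542-3p, with 30 and 17 reads, was inside too. miR-504-5p, with 8 and 29 reads, lay just outside.

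**Figure D1:**
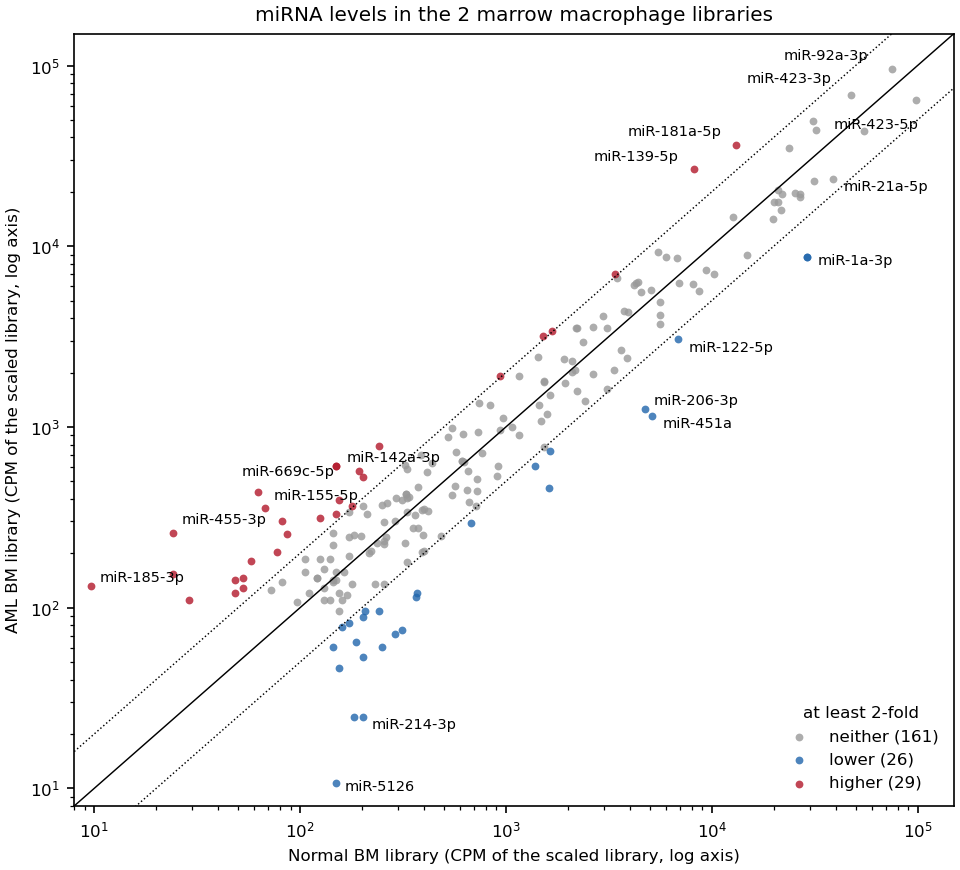
Level of each of the 216 miRNAs in normal BM (x axis) and AML BM (y axis), both in CPM of the scaled library on log axes, with 1 point per miRNA, coloured by call, and lines at equality and at 2-fold. Most abundant miRNAs lie between the 2-fold lines, and the 29 higher and 26 lower miRNAs lie mostly at the low end.

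The abundant miRNAs were largely the same in both states. Among the top 20 of either library, 17 were shared, and the top 20 held 69.9% of the reads in normal BM and 69.6% in AML BM. Together the top 20 name 23 miRNAs, of which miR-181a-5p and miR-139-5p were higher and miR-1a-3p and its repeat row miR-1b-5p were lower. The other 19, among them miR-328-3p, miR-744-5p and let-7d-3p, ran from −0.71 (miR-21a-5p) to 0.67 (let-7i-5p). The first rank passed from miR-423-5p in normal BM to miR-92a-3p, a member of the miR-17~92 family group, in AML BM. The share of miR-92a-3p was 7.53% in normal BM and 9.92% in AML BM, a log2 ratio of 0.36 [0.33 to 0.38], which is short of 2-fold. Of the share gained in AML BM, 11.1 percentage points fell to 5 miRNAs. They were miR-181a-5p (2.46 points), miR-92a-3p (2.39), miR-423-3p (2.33), miR-139-5p (1.93) and let-7i-5p, which went from 3.10% to 5.10% of the reads. The largest losses of share were those of miR-423-5p (−3.26 points), miR-1a-3p (−2.02) and miR-21a-5p (−1.45). Called members held a small part of the reads in each library. The 29 higher members held 3.13% of the reads in normal BM and 8.91% in AML BM, the 26 lower ones 8.44% and 2.71%, and the rest 87.7% and 87.6%. The share of the rest is a net of gains and losses within it, such as those of miR-92a-3p and miR-423-5p. Repeat rows are counted in the shares of all 3 sets. The lower set holds miR-1a-3p (6047 and 2454 reads) and also miR-1b-5p (6035 and 2454), so its share is too large.

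Among the haematopoietic and myeloid miRNAs, miR-142a-3p and miR-223-5p were higher in AML BM. miR-142a-3p, made in all blood lineages, had 31 reads in normal BM and 170 in AML BM, or 149 and 606 CPM. That is a log2 ratio of 2.02 [1.46 to 2.62]. Its partner arm miR-142a-5p had 67 and 173 reads, a log2 ratio of 0.93 [0.52 to 1.36], below 2-fold. It passed 2-fold, at 1.12, with totals that left out the 10 most abundant miRNAs. miR-223-5p, from the hairpin of the myeloid miR-223, had 42 reads in normal BM and 149 in AML BM, a log2 ratio of 1.39 [0.89 to 1.92]. Thus 2 of the 3 members of this list were higher and none was lower, beside 13.4% and 12.0% of all members. The median of the list was 1.39. As a check of the labelled cell type, these markers were present but scarce. The 3p arm of miR-223, the arm by which this myeloid miRNA is usually known, had only 10 reads in normal BM and 12 in AML BM and was not compared. miR-142a-3p ranked 177 in normal BM and 98 in AML BM. The list held 0.0726% of the reads of normal BM and 0.186% of those of AML BM, so both libraries had few reads of the defining myeloid miRNAs.

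Inflammation-linked miRNAs did not move as a group. miR-155-5p had 14 reads in normal BM and 100 in AML BM, or 68 and 357 CPM, a log2 ratio of 2.40 [1.59 to 3.32]. miR-146b-5p had 195 and 539 reads, a log2 ratio of 1.03 [0.79 to 1.28]. Its relative miR-146a-5p, of the same seed and with a shared run of 17 bases, had 437 and 648 reads and a log2 ratio of 0.13 [−0.04 to 0.31]. The other arm of the miR-155 hairpin, miR-155-3p, had 0 reads in normal BM and 1 in AML BM. The most abundant miRNA of this list, miR-21a-5p, had 38799 CPM in normal BM and 23670 CPM in AML BM. Its log2 ratio was −0.71 [−0.76 to −0.67], short of 2-fold. miR-9-5p, which also stands in the list of neural miRNAs, was lower with 286 and 170 reads (−1.19 [−1.47 to −0.91]). Of 5 members compared, 2 were higher and 1 was lower, beside 13.4% and 12.0% of all members. The median of the list was 0.13. The reads of the list went the other way, from 4.35% of normal BM to 2.99% of AML BM, a summed log2 ratio of −0.59, and with a minimum of 1 read the median was −0.44.

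Of the miRNAs linked to lymphocytes, members of the miR-181 family were called higher. miR-181a-5p, known for tuning antigen-receptor signalling in T cells, had 2727 reads in normal BM and 10240 in AML BM, or 13150 and 36519 CPM. That is a log2 ratio of 1.47 [1.41 to 1.54], and its rank went from 22 to 7. miR-181b-5p had 348 and 956 reads (1.02 [0.84 to 1.20]). miR-181d-5p, the third with this seed, had 174 and 371 reads (0.66 [0.39 to 0.93]). miR-150-5p, abundant in mature lymphocytes, had 154 and 379 reads (0.86 [0.59 to 1.14]), and 1.05 with totals that left out the 10 most abundant miRNAs. Of the 7 members of this list, 2 were higher and none lower, beside 13.4% and 12.0% of all members. The median of the list was 0.66. All 10 rows of the list, including those under the minimum, held 1.92% of the reads of normal BM and 4.67% of those of AML BM.

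The most abundant of the other higher miRNAs was miR-139-5p, which is carried in an intron of Pde2a (GRCm38, chr7:101475376-101475443, plus strand). It had 1703 reads in normal BM and 7476 in AML BM, or 8212 and 26662 CPM, a log2 ratio of 1.70 [1.62 to 1.78]. Its rank went from 27 to 9. The highest log2 ratios came from few reads. miR-185-3p had 2 and 37 reads (3.77 [1.82 to 6.87]), and miR-455-3p had 5 and 73 (3.43 [2.14 to 5.10]). miR-669c-5p, from the large cluster in an intron of Sfmbt2, had 13 and 122 reads, a log2 ratio of 2.80. miR-3470b followed with 5 and 43 reads (2.67). Then came miR-5099 (1.93), miR-874-3p with 17 and 85 reads (1.89) and miR-8112 with 50 and 220 (1.70). The intervals of the first group were several log2 units wide, so their order among themselves is not fixed by these counts. The remaining higher miRNAs were miR-1306-3p (1.65), miR-298-5p (1.56), miR-615-3p (1.56), miR-92a-1-5p (1.56), miR-5132-5p (1.46), miR-126b-5p (1.40), miR-15b-5p (1.36) and miR-664-5p (1.33). Nearer to the 2-fold line were miR-151-5p (1.32), miR-361-5p (1.28), miR-339-5p (1.15), miR-128-3p (1.08), miR-151-3p (1.04) and miR-503-5p (1.03). Among these, miR-128-3p, a miRNA enriched in the brain, had 313 and 893 reads.

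**Figure D2:**
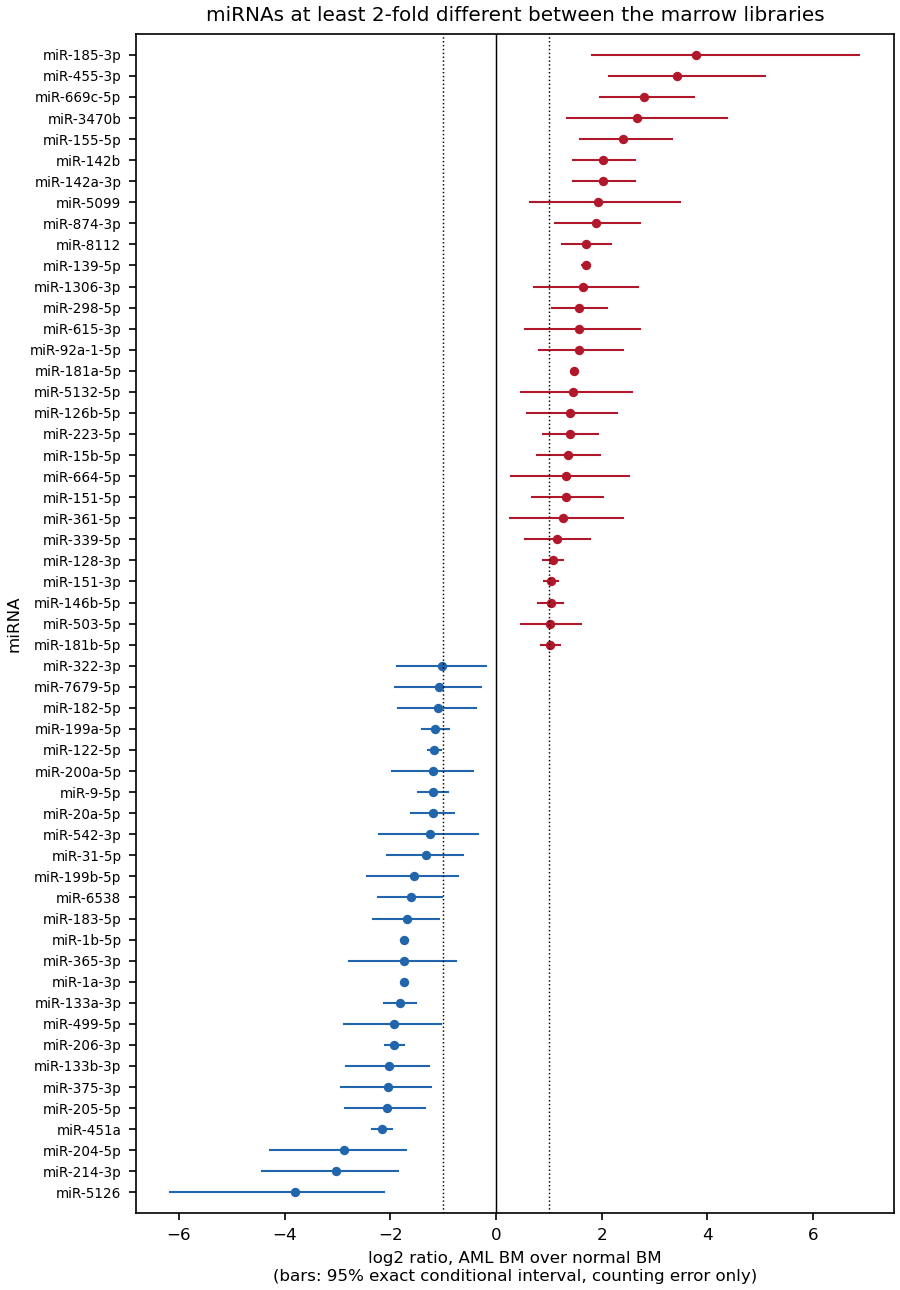
The log2 ratio of AML BM over normal BM (x axis) for each of the 55 miRNAs called higher or lower, with a bar for the 95% counting interval, ordered by ratio. miR-139-5p, miR-181a-5p and miR-1a-3p have narrow bars, whereas miR-185-3p, miR-455-3p and miR-5126 have bars of several log2 units.

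The lower miRNAs included every muscle miRNA compared. miR-1a-3p, a miRNA of heart and skeletal muscle, had 6047 reads in normal BM and 2454 in AML BM, or 29160 and 8752 CPM. That is a log2 ratio of −1.74 [−1.80 to −1.67], and its rank went from 9 to 24. miR-206-3p, made in skeletal muscle, had 986 and 351 reads (−1.93 [−2.11 to −1.75]). miR-133a-3p had 335 and 129 reads (−1.81), miR-133b-3p 60 and 20 (−2.02) and miR-499-5p, from a myosin gene, 42 and 15 (−1.92). All 5 members were lower, with a median of −1.92, beside 12.0% of all members called lower. The list held 3.62% of the reads of normal BM and 1.10% of those of AML BM. These miRNAs are known as markers of muscle and not of macrophages, and they were read in both libraries. The part of such other cells in the remaining differences was not tested.

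The members of the stromal, liver and gut, and epithelial lists also lay below equality. In stroma, 3 of 7 members were lower with a median of −0.93. miR-214-3p had 42 reads in normal BM and 7 in AML BM (−3.02 [−4.42 to −1.85]), miR-199b-5p had 39 and 18 (−1.55), and miR-199a-5p had 338 and 206 (−1.15). miR-143-3p, the most abundant stromal member, had 19887 and 14112 CPM, a log2 ratio of −0.49, short of 2-fold. In liver and gut, 2 of 4 were lower. miR-122-5p, the main miRNA of hepatocytes, had 1424 and 857 reads (−1.17), and miR-375-3p had 52 and 17 (−2.05). In epithelium, 2 of 7 were lower, namely miR-205-5p with 65 and 21 reads (−2.07) and miR-200a-5p with 42 and 25 (−1.18). Over the muscle, stromal, liver and gut, and epithelial lists together, all 23 members compared lay below equality, 12 of them were lower and the median was −1.15. The member nearest to equality was miR-145a-5p at −0.10, which is less than the 0.185 by which leaving out the 10 most abundant miRNAs moved all ratios up. For comparison, 108 of all 216 members lay below equality and 12.0% were called lower. These 4 lists were pooled after their values were seen. The other lists of non-blood cells went both ways, with miR-128-3p higher (1.08) and miR-9-5p lower (−1.19) in the neural list, and miR-126a-5p at 0.38 and miR-126a-3p at −0.44 in the endothelial list. The 4 lists together held 9.64% of the reads in normal BM and 5.12% in AML BM. The calls of miR-122-5p, miR-199a-5p and miR-200a-5p ended with totals that left out the 10 most abundant miRNAs, at −0.983, −0.965 and −0.999.

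Red-cell miRNAs did not move together. miR-451a, which is matured by Argonaute 2 and accumulates in erythroid cells, had 1063 reads in normal BM and 323 in AML BM, or 5126 and 1152 CPM. That is a log2 ratio of −2.15 [−2.34 to −1.97]. miR-144-3p, whose hairpin lies beside that of miR-451a, had 27 and 36 reads (−0.02 [−0.78 to 0.76]). Its other arm, miR-144-5p, had 26 and 11 reads and was under the minimum. miR-486a-5p, another erythroid miRNA, had 913 and 1779 reads and a log2 ratio of 0.53 [0.41 to 0.64]. Its other arm, miR-486a-3p, had nearly the same counts, 889 and 1759. The 5p and 3p counts were also close in normal spleen (3466 and 3361) and in AML spleen (1340 and 1304). Whether both rows hold the same reads was not tested. Of 4 members, 1 was lower and none was higher, beside 12.0% and 13.4% of all members. The list held 1.41% of the reads in normal BM and 1.44% in AML BM, with both miR-486a rows counted.

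None of the 10 compared miRNAs on the list of progenitor and HOX-cluster miRNAs was called, beside 25.5% of all members in either direction. The list holds markers of MLL-rearranged leukaemia. It covers the names miR-10, miR-196, miR-99, miR-100 and miR-125 only, so other miRNAs of HOX clusters stand outside it. miR-196b-5p, from the HOXA cluster and known to be high in MLL-rearranged leukaemia, had 80 reads in normal BM and 196 in AML BM (0.86 [0.48 to 1.25]). miR-10a-5p, from the HOXB cluster, had 6512 and 6407 reads (−0.46 [−0.51 to −0.41]). Over the 10 members the median was −0.11, and it was 0.07 with totals that left out the 10 most abundant miRNAs, where miR-196b-5p passed 2-fold at 1.04. The endothelial miR-126a-3p had 1165 and 1162 reads (−0.44 [−0.56 to −0.32]), and neither of its arms was called. How far leukaemia cells have a part in the AML BM values was not tested.

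The remaining lower miRNAs came from several groups. The lowest log2 ratio was that of miR-5126, with 31 reads in normal BM and 3 in AML BM (−3.80 [−6.16 to −2.12]), whose RefSeq sequence is 100% G and C. miR-204-5p had 38 and 7 reads (−2.88), miR-365-3p 32 and 13 (−1.73) and miR-31-5p 50 and 27 (−1.32). miR-183-5p (−1.68) and miR-182-5p (−1.11), known from sensory cells and made from neighbouring hairpins, were both lower. miR-6538 (−1.61), miR-542-3p (−1.25), miR-20a-5p (−1.20), miR-7679-5p (−1.08) and miR-322-3p (−1.02) were the others. The calls of miR-182-5p, miR-7679-5p and miR-322-3p ended with totals that left out the 10 most abundant miRNAs, at −0.922, −0.897 and −0.835. That of miR-322-3p also ended with total counts (−0.977) and with DESeq2 size factors (−0.991).

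**Figure D3:**
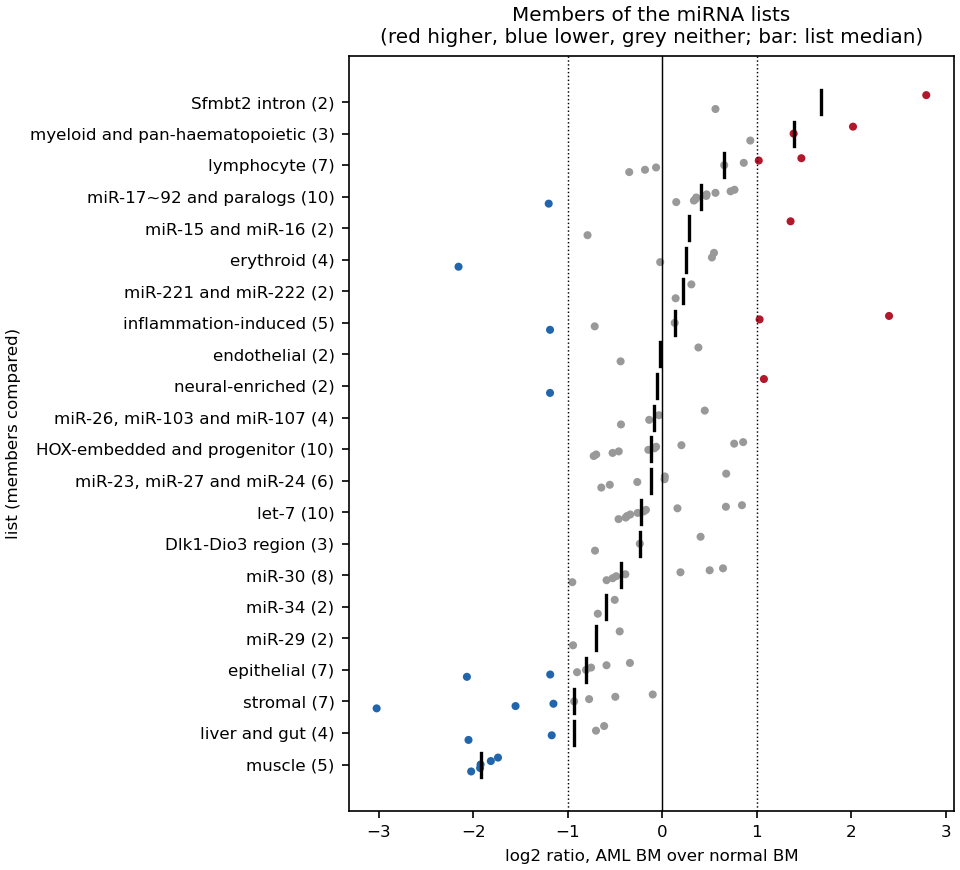
The log2 ratio of AML BM over normal BM (x axis) for every member of each list (rows), with 1 point per miRNA, coloured by call, and a mark at the median of the list. All points of the muscle, stromal, liver and gut, and epithelial rows lie below 0, and those of the myeloid row lie above it.

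The let-7, miR-30, miR-23, miR-27 and miR-24, and miR-26, miR-103 and miR-107 groups, which many cell types make, had no called member. For comparison, 25.5% of all members were called in either direction. The 10 let-7 members had a median of −0.23. They ran from let-7b-5p at −0.46 to miR-98-5p at 0.84, and let-7i-5p had 6409 and 13835 reads (0.67 [0.63 to 0.72]). miR-98-5p passed 2-fold, at 1.03, with totals that left out the 10 most abundant miRNAs. The median was −0.44 over 8 miR-30 members, −0.12 over 6 members of the miR-23, miR-27 and miR-24 group and −0.09 over 4 of the miR-26, miR-103 and miR-107 group. The medians of the last pair turned positive under that scaling, at 0.07 and 0.10. In the list of miR-17~92 and its paralogs, 9 of 10 members lay above equality with a median of 0.41, and miR-20a-5p was lower. That list does not hold the minor arms miR-92a-1-5p, which was higher (1.56), and miR-92a-2-5p (−0.16), nor miR-363-3p (−0.12). This group held 8.31% of the reads in normal BM and 11.0% in AML BM, mostly as miR-92a-3p. Imprinted Dlk1-Dio3 miRNAs were nearly unread: of 41 rows of that region in the table, 3 reached the minimum, and none was called. The lists cover 106 members, of which 24 were called, beside the 25.5% of all members. The 110 members in no list held 35.0% of the reads of normal BM and 38.6% of AML BM. Of these, 20 were higher and 11 lower, beside 13.4% and 12.0% of all members.

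Seed families were compared member by member. RefSeq sequences gave 20 families with 57 members, and in 16 of them the highest and lowest ratios lay within 1 log2 unit, a width close to that of the middle 50% of all members. In 12 families the intervals of the highest and the lowest member did not overlap. The widest was the pair miR-15b-5p and miR-16-5p, whose hairpins lie side by side in an intron of Smc4 on chromosome 3. miR-15b-5p had 32 reads in normal BM and 111 in AML BM (1.36 [0.78 to 1.97]). miR-16-5p had 138 and 108 reads (−0.79 [−1.17 to −0.42]), so the intervals did not overlap, while the sum of the pair was nearly equal (−0.07). miR-16-5p can also come from another locus, and its reads cannot be assigned to 1 of them.

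The seed AAAGUGC gave the next widest family. miR-20a-5p had 141 and 83 reads (−1.20 [−1.61 to −0.80]), whereas miR-17-5p, from the same transcript and differing in few bases, had 61 and 114 (0.47 [0.01 to 0.94]). With miR-93-5p (0.36) and miR-106b-5p (0.56) the family summed to −0.01. The let-7 seed family of 9 members summed to −0.02 and held 15.3% and 15.5% of the reads. These 3 sums near 0 are smaller than the shift of 0.185 that the other scaling gave, so they carry no direction. Of the 20 families only miR-181 passed 2-fold as a sum, at 1.40 [1.34 to 1.45], with 1.57% of the reads in normal BM and 4.26% in AML BM. The sum of the miR-146 pair was 0.47, and those of the miR-148 and miR-152 family and the miR-10 family were −0.49 and −0.54. Near-identical members can exchange reads in counting, as miR-103-3p and miR-107-3p with a shared run of 21 bases could, so their single values are less certain than the sums.

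**Figure D4:**
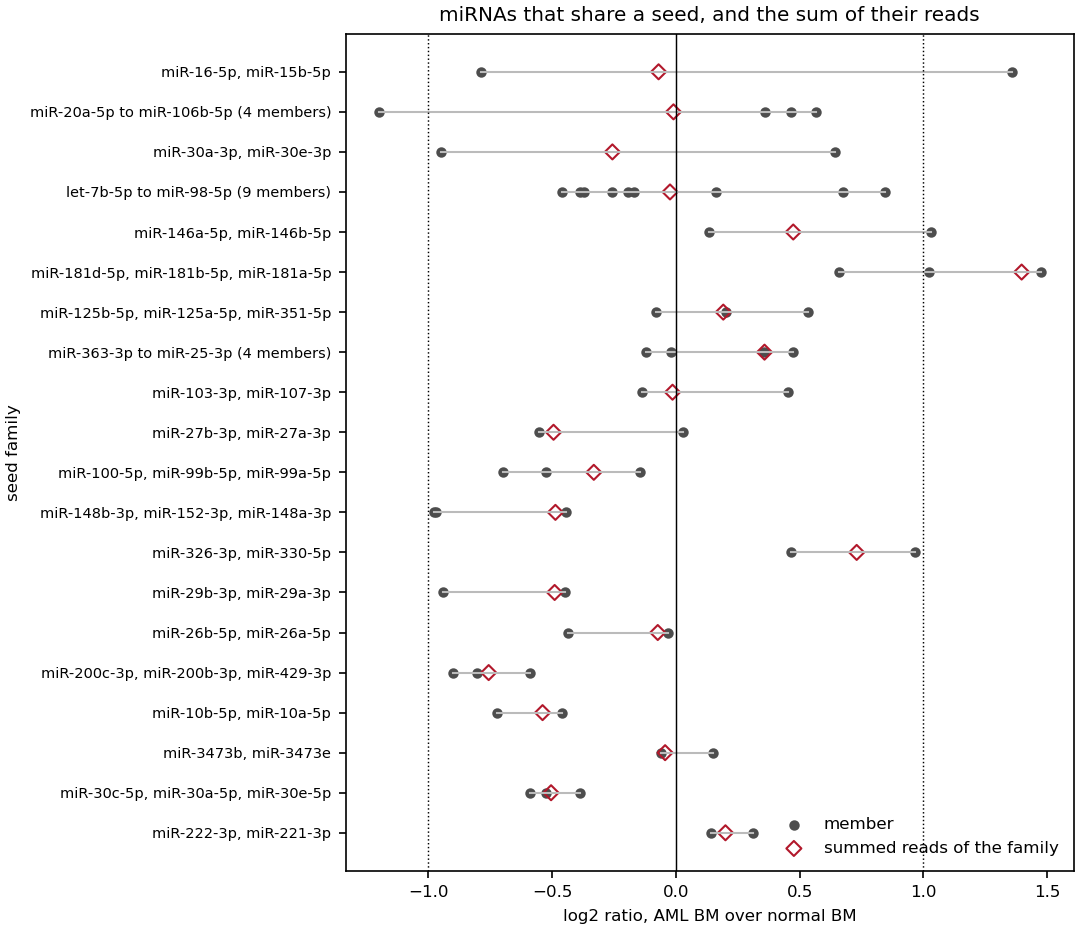
The log2 ratio of AML BM over normal BM (x axis) for the members of each of the 20 seed families (rows), with 1 point per miRNA and a mark at the ratio of the summed reads. The rows of miR-16-5p with miR-15b-5p and of the 4 members from miR-20a-5p to miR-106b-5p are the widest, at 2.15 and 1.76 log2 units, and their sums lie near 0.

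Arms of 1 hairpin come from 1 transcript, and their balance within a library does not depend on the scaling. Both arms were counted for 32 hairpins with each arm at 30 reads or more in the larger library. Arms were paired by name, so miR-199a, which can come from hairpins on chromosomes 1 and 9, counts as 1. miR-126a and miR-126b both count, though 1 arm of each has the same counts. In 10 of the 32 the arms differed in log2 ratio by at least 1, and in 14 the arms lay on opposite sides of equality under the TMM scaling. In 1 hairpin, miR-151, both arms were called in the same direction, and in 8 only 1 arm was called. miR-423, the most abundant of these, had 20500 reads of its 5p arm and 9862 of its 3p arm in normal BM. In AML BM it had 18071 and 19249. The 5p share was therefore 67.5% and 48.4%, and the larger arm changed. The difference of the arms in log2 ratio was −1.15 [−1.19 to −1.10]. In miR-877 the larger arm also differed, at 50.5% and 45.1%, but on 54 and 53 reads in normal BM and 69 and 84 in AML BM. Its arm difference of −0.31 [−1.07 to 0.45] was within counting error.

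In miR-139 it was the 5p arm that gained. The 3p arm had 938 and 1566 reads (0.30 [0.19 to 0.42]), so the 5p share was 64.5% in normal BM and 82.7% in AML BM. The miR-142a hairpin shifted towards its 3p arm, with a 5p share of 68.4% and 50.4%. The widest differences, in miR-185 (97.8% and 72.2%) and miR-455 (98.0% and 77.6%), rested on 2 and 5 reads of the 3p arm in normal BM, while their 5p arms were called in neither direction. The others were miR-10b (99.5% and 98.5%), miR-149 (68.1% and 81.5%), miR-150 (65.0% and 79.3%), miR-30e (97.5% and 94.9%) and miR-126b (19.05% and 32.20%). The counts of miR-126b-3p repeat those of miR-126a-5p in all 4 libraries, so the share given for miR-126b need not describe 1 hairpin. Directions were mixed: of the 32 hairpins, 15 had the higher ratio in the 5p arm and 17 in the 3p arm.

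**Figure D5:**
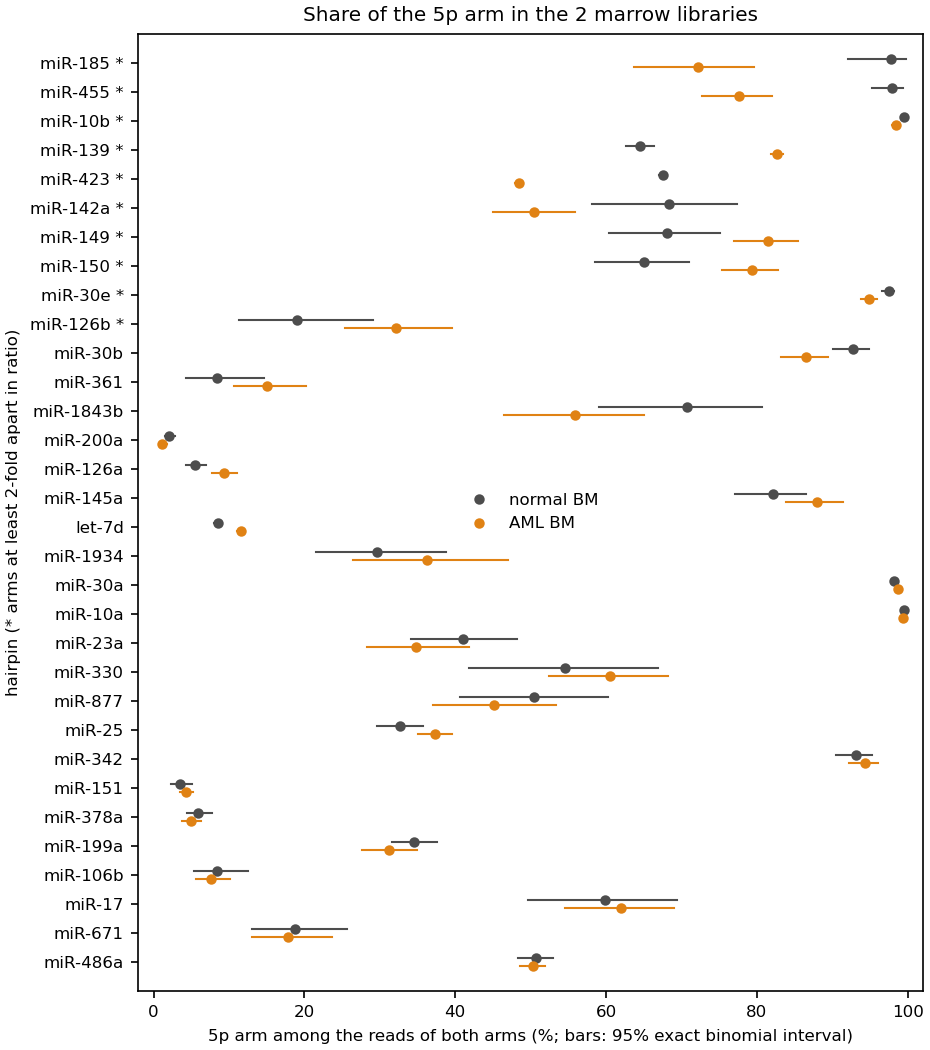
Share of the 5p arm among the reads of both arms (percent) in normal BM and in AML BM for all 32 hairpins (rows), with bars for exact 95% binomial intervals and a star at the 10 hairpins whose arms differed by at least 1 log2 unit. miR-423 goes from 67.5% to 48.4% with bars narrower than the points. In normal BM the bar of miR-330 runs from 41.8% to 66.9%, and in AML BM that of miR-185 runs from 63.7% to 79.6%.

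Of the hairpins, 167 were placed on GRCm38 with GENCODE annotation: 51 were intergenic, 73 lay in an intron of a gene and 43 overlapped an exon. Hairpins within 10000 bases formed 25 clusters, of which 11 held a called member and 2 held members called in both directions. The 11 include the miR-181a and miR-181b clusters of chromosomes 1 and 2. These hold the same mature miRNAs, whose reads cannot be assigned to 1 locus, so the same calls count in both. The clusters with both directions were as follows. The first is the miR-17~92 transcript on chromosome 14, where miR-20a-5p was lower (−1.20) and miR-92a-1-5p, the minor arm of the first miR-92a hairpin, was higher with 18 and 72 reads (1.56 [0.80 to 2.40]). The other is on chromosome X, where miR-503-5p was higher (1.03) and miR-542-3p and miR-322-3p were lower. In other clusters the members were called in 1 direction. miR-206-3p and miR-133b-3p, neighbours on chromosome 1, were at −1.93 and −2.02. miR-451a (GRCm38, chr11:78073170-78073241, plus strand, intergenic) and miR-144-3p, in contrast, differed by 2.13 log2 units. The hairpin of miR-155 overlaps an exon of its host transcript Mir155hg (chr16:84714140-84714204, plus strand). That of miR-142a lies in an intron of Mir142hg (chr11:87756864-87756927, plus strand).

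Members with a high share of G and C had somewhat higher ratios. Over the 178 members with a sequence, counted without repeated rows, the median log2 ratio was −0.37 under 45% GC, −0.07 from 45 to 55% and 0.31 at 55% or more. In the last class 11 of 55 members were higher and 4 lower, beside 23 and 20 of all 178. Across these miRNAs, which share 2 libraries and are not independent, the Spearman correlation of GC content with the ratio was 0.232 and the Pearson correlation 0.0780. Weighted by reads, the GC content was 48.7% in normal BM and 50.1% in AML BM. By mature length, the median was 0.03 for sequences of 21 bases or fewer, −0.18 for those of 22 and 0.35 for those of 23 or more, so the ratio did not follow length in order. Whether library preparation has a part in these differences was not tested.

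Some rows of the table repeat others. In 7 pairs the counts matched in all 4 libraries within 3% or 2 counts, and 2 of the repeats, miR-142b and miR-1b-5p, were among the called members, so 28 higher and 25 lower are left when each pair counts once. Where RefSeq held both sequences, in 4 pairs, the sequences were reverse complements of each other over 19 or 20 bases. The miR-142 pair is shown with the shared stretch in capitals, which reads as the reverse complement over 20 bases.
miR-142a-3p: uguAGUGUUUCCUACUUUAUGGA
miR-142b: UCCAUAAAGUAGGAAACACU
The same holds in part for miR-126b-5p, which was higher with 16 and 57 reads (1.40 [0.58 to 2.30]) and whose sequence is the reverse complement of 19 bases of miR-126a-3p (−0.44). The sources used here do not give whether the counting used the strand, and without it reads of such partners cannot be told apart.

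The spleen libraries of the study give a value side by side for these miRNAs. Of the 55 members called in marrow, 38 were also compared between AML spleen and normal spleen, and 21 were called there. In 20 of the 21 the direction was opposite, or in 18 of 19 with repeated rows counted once. Over all 186 members compared in both tissues, 85 were called in spleen and 136, or 73.1%, lay on opposite sides of equality. Of all miRNAs compared in spleen, 46.3% were called in either direction. miR-155-5p had 824 reads in normal spleen and 95 in AML spleen, and miR-1a-3p had 735 and 1919. The exception was miR-3470b, higher in both tissues, with 34 and 57 reads in spleen. The muscle, stromal, liver and gut, and epithelial lists held 0.876% of the reads of normal spleen and 5.15% of those of AML spleen, so this share too went the opposite way to marrow.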

How the data were processed

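Total RNA of sorted macrophages (QIAGEN RNeasy kit) was sequenced as small RNA by Illumina, per the labels' protocols. The deposited table holds whole read counts per miRNA for 4 libraries, in 804 rows with known names and 43 predicted rows, and no other rows. The deposited TPM values, named so per the file headers, equal the count times 1000000 over the library total with no length term, and served only for that check. The sources used here name no aligner, counter, genome build or miRNA annotation.

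Groups came from sample titles, with 1 library each. Library totals were scaled with TMM factors from all 4 libraries (edgeR 4.0.16, R 4.3.3), which were 1.00 for normal BM and 1.03 for AML BM. Ratios of scaled counts received 95% exact conditional (Clopper-Pearson) intervals in scipy 1.17.1. A miRNA was called at a ratio of at least 2-fold with an interval excluding 1 and at least 30 counts in the larger library. A count of 0 entered as 3 counts, which correspond to 14.5 CPM in normal BM and 10.7 CPM in AML BM. No p-value was computed. The script was checked on simulated counts.

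Named miRNAs were those called, the 20 most abundant of each library (those without a result of their own by range), list members, and hairpins whose arms differed by at least 1 in log2 ratio. The members and the 22 lists were chosen with earlier results of these data known. Alternatives were total counts, DESeq2 1.42.0 size factors, TMM from the marrow libraries alone, totals without the 10 most abundant miRNAs, minimum counts of 1 and 100, and repeated rows counted once. Sequences came from RefSeq (GRCm38.p6), and hairpin positions were set against GENCODE M21 genes.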

Additional observations from a re-analysis of the deposited data

Results flagged for a closer look

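For 20 of the 21 miRNAs called in both tissues, the AML library lay on opposite sides of the normal library in marrow and in spleen. Over all 186 members compared in both tissues, 73.1% lay on opposite sides. Each tissue has 1 library a state, so the difference was not tested. It is given as the spleen log2 ratio minus the marrow log2 ratio. The 20 were picked for their opposite directions, so its sign follows from that choice and only its size is described. The difference is negative for the 11 miRNAs that were higher in AML BM. These values were −6.57 for miR-185-3p, −4.54 for miR-92a-1-5p, −4.49 for miR-155-5p, −3.75 for miR-142a-3p and its repeat miR-142b, and −2.95 for miR-1306-3p. They were −2.92 for miR-15b-5p, −2.79 for miR-664-5p, −2.75 for miR-5132-5p, −2.62 for miR-181a-5p and −2.42 for miR-181b-5p. By the same choice the difference is positive for the 9 miRNAs that were lower in AML BM. The value of miR-6538 was 5.23 and that of miR-133a-3p was 5.08, followed by 4.14 for miR-1a-3p and its repeat miR-1b-5p, and 4.11 for miR-451a. They were 3.90 for miR-206-3p, 3.75 for miR-9-5p, 2.98 for miR-199a-5p and 2.70 for miR-122-5p.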

How the results depend on the processing

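No paired analysis was possible because each group has 1 library and the labels give no replicate numbers, so no library could be left out either. TMM factors from the marrow libraries alone left 29 higher and 26 lower. Total counts gave 30 and 25, and DESeq2 size factors 29 and 25. Totals without the 10 most abundant miRNAs gave 37 and 20, and 6 calls ended and 8 began. There the list medians were 0.44 for erythroid, 0.0719 for HOX-embedded and progenitor (reversed), −0.75 for liver and gut and −0.0408 for let-7. They were −0.25 for miR-30, 0.0668 for the miR-23, miR-27 and miR-24 group (reversed) and 0.10 for the miR-26, miR-103 and miR-107 group (reversed). With a minimum of 1 read, 45 were higher and 48 lower of 643 compared. The medians were then −0.0202 for erythroid, −0.44 for inflammation-induced and 0.0261 for the miR-23, miR-27 and miR-24 group, all reversed, and 0.30 for lymphocyte. With a minimum of 100 reads, 15 were higher and 9 lower of 131. The medians were then 0.53 for erythroid and −0.70 for liver and gut, and 3 of 9 hairpins had arms at least 2-fold apart. Of 15 list medians under 7 alternatives, 92 values kept their direction and size, 7 moved and 6 reversed. The medians of the muscle, stromal, epithelial, and liver and gut lists stayed below 0 under all 7, and so did those of let-7, miR-30 and the Dlk1-Dio3 region. Depth limits the rare miRNAs: 30 reads were 145 CPM in normal BM and 107 CPM in AML BM.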
